A study of Mus musculus with 8 samples.

Results

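The nuclear receptor genes were followed in the livers of mice with a hepatocyte-directed deletion of Zfp36l1 and Zfp36l2. A named set of 37 receptor genes was taken by symbol from the 22052 genes of the expression table, and all 37 were found. They comprised 4 steroid receptors, 3 receptors for thyroid hormone and vitamin D, 11 lipid-sensing receptors, 2 xenobiotic receptors and 17 orphan receptors. The family has further members that are not described here. The controls were 4 male C57BL/6 mice aged 8 weeks with the genotype Zfp36l1fl/fl/Zfp36l2fl/fl, in which both genes are flanked by loxP sites and no recombinase is present. The other 4 mice, called dKO, had the same sex, age, strain and floxed alleles and also carried Alb-Cre. Each library is the liver of 1 mouse. All 8 mice had received corn oil into the peritoneum, so no liver was untreated. Alb-Cre is a recombinase expressed from the promoter of albumin, a hepatocyte product, so the other cells of a whole liver are not its main target.

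Nuclear receptors are transcription factors that bind DNA through zinc fingers and, in most members, change their partner proteins when a small lipophilic ligand occupies a second domain. Many work as a pair with a retinoid X receptor (RXR), the common partner of the thyroid hormone, vitamin D, retinoic acid, fatty acid, oxysterol and xenobiotic receptors, while steroid receptors bind as pairs with themselves and several orphan receptors bind alone. In liver the family is known for its control of fatty acid oxidation, bile acid and cholesterol handling, drug metabolism, glucose output and the daily rhythm of metabolic genes. Messenger RNAs that carry AU-rich stretches in the 3' untranslated region (3' UTR) are bound by ZFP36L1 and ZFP36L2, which speed their breakdown.

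The DNA spelling of the core of such an element is the heptamer TATTTAT, and the longest annotated 3' UTR of each receptor was searched for it on the sense strand. It occurred in 14 of the 37 receptor genes, at 22 positions (some overlapping). The stretches below are shown because they belong to receptors described in detail here, 3 that were higher in dKO livers (Rarg, Esrra, Nr4a3), 2 that were lower (Nr1d1, Esrrg) and Nr1d2, the close relative of Nr1d1, which did not pass the test. Each is at most 30 bases of the 3' UTR, 5' to 3' on the gene's own strand, from GENCODE release M21 on GRCm38 (mm10), with the heptamer in capitals.
Rarg (chr15:102235187-102235216, minus strand): gaggaagcctcTATTTATttattagctttt
Esrra (chr19:6911126-6911155, minus strand): caataacactaTATTTATttttgggtttgg
Nr4a3 (chr4:48084754-48084783, plus strand): agctttgcctgTATTTATtgcaagaccacc
Nr1d1 (chr11:98768102-98768131, minus strand): aaccagaatctTATTTATattgttataaaa
Esrrg (chr1:188214342-188214371, plus strand): ccagattgttgTATTTATtccactattttg
Nr1d2 (chr14:18206617-18206646, minus strand): gctgagatgttTATTTATatgtgtatacta
In Rarg a further heptamer began 4 bases after the first and overlapped it. The heptamer of Nr1d1 lay 100 bases after the stop codon in a 3' UTR of 288 bases, and that of Nr1d2 lay 50 bases after the stop codon. By direction of change, 5 of the 10 receptors that were higher carried a heptamer (Rarb, Rarg, Esrra, Nr4a2 and Nr4a3), as did 6 of the 16 that were lower (Thrb, Esrrg, Nr1d1, Nr2c1, Nr2c2 and Nr6a1) and 3 of the 10 that did not pass (Rara, Nr1d2 and Rora). The share over the 37 receptors was 37.8%, and the shares of all genes of like 3' UTR length came to 35.3%. Among the 15424 tested genes with an annotated 3' UTR the heptamer was in 31.7% of those higher, 24.9% of those lower and 28.8% of the rest. A match is a run of letters and not a measured binding site.

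**Figure D1:**
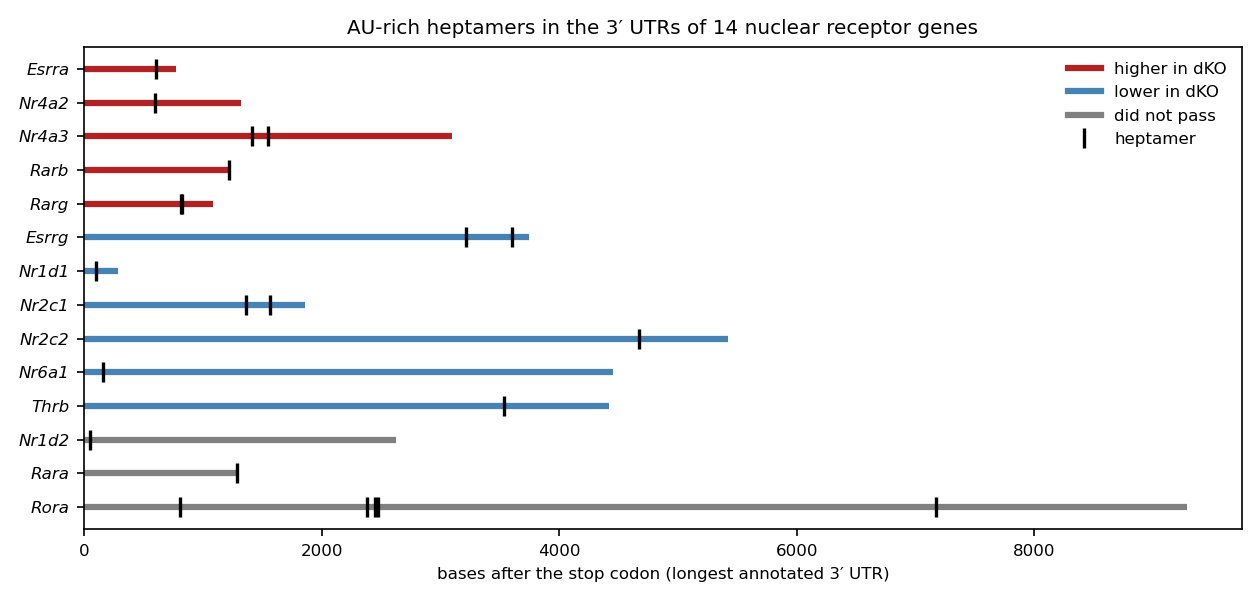
Each bar is the longest annotated 3' UTR of 1 of the 14 receptor genes that hold the heptamer, drawn from the stop codon in bases along the x axis and coloured by the direction of the gene's change in dKO livers; black ticks are heptamers. Ticks occur on bars of all 3 colours, and the shortest bar, Nr1d1 with 288 bases, carries 1 tick.

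Reads assigned to genes numbered 15253827 to 19299556 per library. Values are normalised read counts, which are reads divided by 1 size factor per library, and 1 read was worth 0.852 to 1.14 of them. They are given for livers 1 to 4 of each group in that order, means are ± SD over 4 livers, and a change is the limma estimate of dKO minus control on the log2(value + 0.5) scale, on which the size of a change in genes with few reads depends on the added 0.5. A receptor is said to rise or fall where the Benjamini-Hochberg adjusted p over all 20055 genes tested was under 0.05. The targeted transcripts were checked first. Zfp36l1 was 1370.2 ± 194 in controls and 226 ± 27.6 in dKO livers, and Zfp36l2 was 1584 ± 393 and 796 ± 94.4; the groups did not overlap for either (exact permutation p = 0.0286 each, 2-sided, the smallest that 4 against 4 allows). A whole liver mixes cell types, and fewer cells of a type and less RNA per cell cannot be told apart here. Hepatocyte markers were 4 higher and 3 lower of 12. Against 21.2% of all genes tested, markers of other cells that rose in dKO livers were 12 of 16 macrophage, 10 of 10 neutrophil, 10 of 16 stellate cell and fibroblast, 10 of 12 bile duct and 5 of 13 endothelial markers. Of T and NK cell markers 1 of 12 rose, a share below that of all genes. Their summed level, on low values per gene, was 66.3 to 98.5 in controls and 120 to 140 in dKO livers. The median log2 change of these markers was 0.62. The stellate cell marker Ecm1 and the endothelial marker Clec4g fell, by 1.23 and 0.40 on the log2 scale. Of 8 B cell markers 2 rose and 4 fell, where 17.0% of all genes tested fell. With only genes of a mean of at least 10 tested, 1 B cell marker fell. The median log2 change of the B cell markers then went from -0.86 to 0.20. Of the neutrophil markers 2 were at 0 in all controls. The small counts moved with single libraries. No endothelial marker fell without control 1, dKO 2 or dKO 3 and 2 fell without control 3, while 0 T and NK cell markers rose without control 3, dKO 1 or dKO 4 and 2 without dKO 2.

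Of the 37 receptors, 31 had at least 3 reads in every library. The 6 below that in some library were Pgr, Vdr, Hnf4g, Esrrb, Esrrg and Nr4a3, and their values rest on few reads. Pgr, the progesterone receptor, had no read in any control liver and 1 and 3 reads in dKO livers 1 and 4, and it was not tested. Taken alone, 1 library without a read allows up to 3 expected reads, and the control libraries together allow fewer per library.

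Compared per kilobase of exon, the receptor transcripts of control liver spanned several orders of magnitude. Hnf4a, the hepatocyte identity factor HNF4 alpha, was the highest with 3027 ± 343 normalised reads per kb. Rxra, the main RXR, followed with 1923 ± 52.1. Nr1d1, the clock repressor REV-ERB alpha, had 946 ± 82.5 and Nr1i2, the xenobiotic receptor PXR, 788 ± 108. Ppara, the fatty acid sensor of oxidative tissue, had 693 ± 130.2. Ranks next to these were held by Nr1h3 (LXR alpha) with 672 ± 4.14 and Nr2f6 with 634 ± 54.4. From Nr1d1 to Nr2f6 each gene overlapped the next in control livers, so the order of these neighbours is not beyond their spread. At the low end stood Esrrb, Hnf4g, Nr4a3 and Vdr, with control means from 0.187 to 2.26 per kb. In dKO livers Hnf4a and Rxra kept the first and second place, Nr1d1 went from rank 3 to 10, Nr1i3 from 10 to 15, and Pparg from 21 to 13. Summed over the 37 genes, receptor transcripts came to 11132 ± 678 and 8824 ± 436 per kb in controls and dKO livers. The share of Hnf4a and Rxra in that sum was 44.4% ± 1.15 in controls and 44.3% ± 0.222 in dKO livers.

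**Figure D2:**
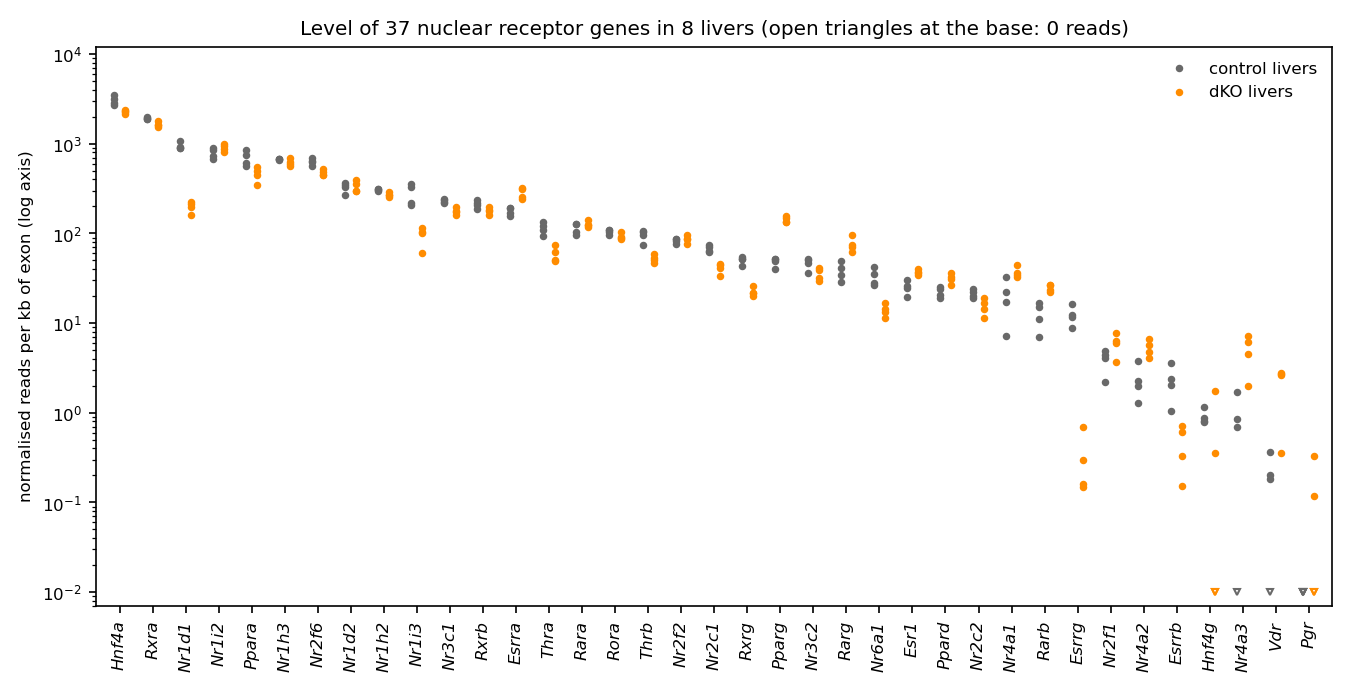
Normalised reads per kb of exon (log axis) of 37 nuclear receptor genes, 1 point per liver, with 4 control livers in grey and 4 dKO livers in orange and genes ordered by control mean. Hnf4a and Rxra lead in both groups, Nr1d1 and Nr1i3 lie lower in dKO livers, and Esrrg falls to the foot of the plot.

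Of the 36 receptors tested, 10 rose in dKO livers, 16 fell and 10 did not pass. Over all 20055 genes tested, 21.2% rose and 17.0% fell. These shares are also the background for the counts of every gene list below. For 23 of the 36 receptors the 4 dKO values did not overlap the 4 control values, against 36.4% of all genes. The median log2 change was -0.21 over the receptors and 0.03 over all genes. Among genes with a mean of 10 or more, which pass more often, 26.3% rose and 22.7% fell, and of 33 such receptors 9 rose and 15 fell. At that level the groups did not overlap for 47.0% of genes and for 22 of the 33 receptors. The share of receptors that fell was thus above the background share, and the share that rose was near it once level was taken into account. The limma estimate was at least 2-fold in 6 receptors that rose (Vdr, Rarb, Pparg, Nr4a1, Nr4a2 and Nr4a3) and 6 that fell (Rxrg, Nr1i3, Esrrb, Esrrg, Nr1d1 and Nr6a1).

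**Figure D3:**
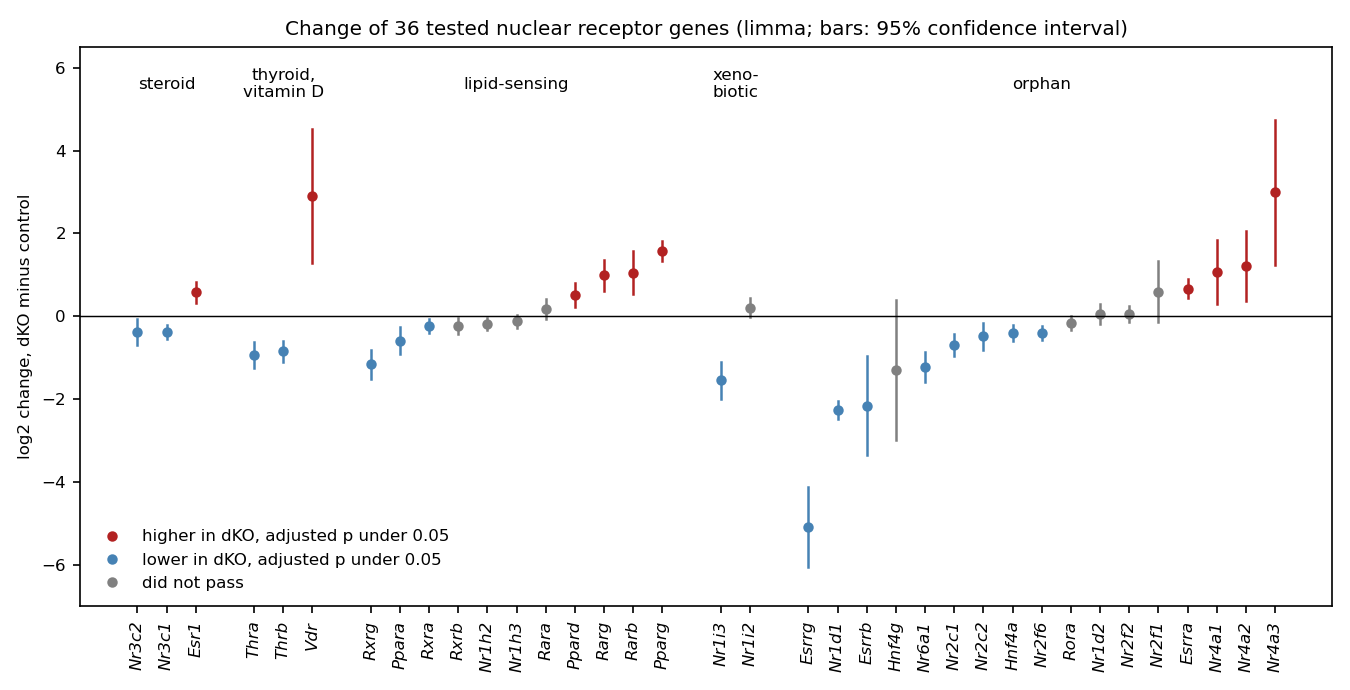
Log2 change of each tested receptor (point) with its 95% confidence interval (bar), grouped by receptor class and coloured by whether it rose, fell or did not pass. Within most classes some members rose and others fell, and the changes run from -5.09 for Esrrg to 2.99 for Nr4a3.

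Among the steroid receptors Esr1 rose, and Nr3c1 and Nr3c2 fell. Esr1 encodes estrogen receptor alpha, the main estrogen receptor of liver. Its values were 270.1, 339, 410.2 and 350.0 in control livers and 504, 472, 498 and 552 in dKO livers, so every dKO liver lay above every control. The change was 0.58 (95% confidence interval 0.32 to 0.84, adjusted p = 0.00204). Nr3c1 encodes the glucocorticoid receptor, which binds cortisol-like hormones and drives gluconeogenic genes. It was 1679.9, 1813, 1872 and 1718 in controls and 1357, 1239, 1506 and 1327 in dKO livers, again without overlap, a change of -0.39 (adjusted p = 0.00162). Nr3c2, the mineralocorticoid receptor, was 237, 332, 302 and 328 in controls against 264, 191, 255 and 206 in dKO livers. Control 1 lay below dKO 1 and dKO 3, and the change of -0.39 passed narrowly (adjusted p = 0.0468). Its call was lost without control 2, 3 or 4 (adjusted p = 0.125, 0.0856 and 0.103) and without dKO 2 or 4 (0.132 and 0.120). Leaving out any 1 of these 5 libraries, 1 steroid receptor fell in place of 2. The Nr3c2 call was also lost with equal library totals (adjusted p = 0.107), a pseudocount of 0.1 (0.0504) and a replicate block (0.0875). The log2 ratio of Nr3c1 to Nr3c2 was 2.57 ± 0.20 in controls and 2.57 ± 0.16 in dKO livers.

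Of 20 genes known as glucocorticoid receptor targets, 9 rose, 5 fell and 6 did not pass, with a median of 0.33. Sgk1, a kinase of salt handling, rose 2.26-fold, and Sds, serine dehydratase of amino acid breakdown, rose 2.18-fold. Klf9, a transcription factor that also answers to thyroid hormone, fell by 1.14 on the log2 scale. The list therefore moved in both directions while its receptor fell.

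Both thyroid hormone receptor genes fell. Thra, thyroid hormone receptor alpha, was 501, 429, 559 and 613 in controls and 346, 235, 287 and 229 in dKO livers, and Thrb, the beta form, known as the main form in liver, was 778, 775, 709 and 547 in controls against 392, 347, 432 and 374 in dKO livers. Neither gene overlapped between groups. The changes were -0.94 (interval -1.26 to -0.63, adjusted p = 0.000254) and -0.85 (interval -1.11 to -0.59, adjusted p = 0.000118). Per kb the 2 genes were at similar levels, and the share of Thrb in their sum was 45.5% ± 7.45 in controls and 47.0% ± 3.92 in dKO livers. Their log2 ratio differed by -0.09 between groups (exact permutation p = 0.714). Thra and Nr1d1 lie on opposite strands and share 263 exon bases, 5.70% of the exons of Thra and 8.55% of those of Nr1d1. No strand setting for the counting is given in the sources, so reads from that stretch cannot be assigned to either gene with certainty.

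Of 10 thyroid hormone targets, 6 rose and 3 fell. Dio1, the deiodinase that activates thyroid hormone in liver, fell from 2891 ± 354 to 1146 ± 406 (log2 change -1.41). Slc16a12, a transporter, rose 1.61-fold. Ttr, which carries thyroid hormone in blood, changed by -0.87 and fell.

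Vdr, the vitamin D receptor, is scarce in hepatocytes and better known in the non-parenchymal cells of liver. It had 2, 1, 0 and 1 reads in control livers 1 to 4 and 2, 17, 18 and 16 in dKO livers 1 to 4. The dKO liver 1 was at the level of the controls, and the other 3 dKO livers were well above it. Over summed reads the level per library was 11.6-fold higher in dKO livers (95% interval 4.26 to 44.0, counting error only). The log2 change was 2.90 (adjusted p = 0.00790), and 3.56 without dKO 1. Macrophage and stellate cell markers rose in the same livers, with summed levels of 10009 to 14369 in controls and 20623 to 30761 in dKO livers and 6233 to 14941 in controls and 22424 to 29432 in dKO livers; their part in the result was not tested.

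Of the retinoic acid receptors Rarb and Rarg rose, and Rara did not pass. Rara, the alpha form, was 552, 555, 421 and 456 in controls and 616, 548, 516 and 547 in dKO livers, with a change of 0.17 that did not pass (adjusted p = 0.227). Rarb, itself a known retinoic acid target, was 87.3, 58.5, 36.8 and 80.1 in controls against 124, 116, 139.7 and 141 in dKO livers. Rarg was 177, 146, 122 and 210.4 in controls against 318, 406, 302 and 266 in dKO livers. All dKO values of Rarb and Rarg lay above all control values, and the genes rose by 1.05 (adjusted p = 0.00404) and 0.99 (adjusted p = 0.000649). Per kb, the share of Rarb and Rarg among retinoic acid receptor transcripts was 30.7% ± 5.48 in controls and 44.0% ± 3.41 in dKO livers. The log2 ratio of Rara to Rarb was lower in dKO livers by 0.88 and that of Rara to Rarg by 0.82, each without overlap between groups. Exons of Rarb share 34.1% of their bases with Top2b on the other strand, which fell from 954 ± 58.1 to 751 ± 38.6 and so moved the other way.

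Of 10 retinoic acid targets 3 rose, 1 fell and 6 did not pass. Among those that rose were Tgm2, a transglutaminase, from 1603 ± 167 to 6983 ± 1046, and Cyp26a1, which breaks retinoic acid down, by 1.13 on the log2 scale. Dhrs3, a retinal reductase, fell by 0.75, and without control 3 the number that fell was 2. Of 27 tested genes that make or clear receptor ligands, 5 rose and 10 fell (3 rose without dKO 2). Over all genes tested, 21.2% rose and 17.0% fell. Aldh1a1, which makes retinoic acid, was 4.14-fold lower, and Cyp27a1, which makes oxysterols and hydroxylates vitamin D, was 1.89-fold lower. Aldh1a3, of the same list, went the other way, from 10.8 ± 4.59 in controls to 124 ± 39.6 in dKO livers (log2 change 3.52).

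Of the RXR genes, which supply the shared partner, Rxrg fell clearly, Rxra narrowly and Rxrb did not pass. Rxra was 10246, 10902, 10492 and 10372 in controls and 9749, 8302, 8941 and 8788 in dKO livers. These did not overlap, but the step was small, -0.23 (adjusted p = 0.0258). Its call was lost without control 2 (adjusted p = 0.0672), control 3 (0.0506), dKO 2 (0.0784) or dKO 4 (0.0612), and the estimate was 0.046 after quantile normalization (adjusted p = 0.600). The call was also lost after scaling to equal totals (0.0897). Rxrb was 928, 744, 868 and 828 in controls against 790.4, 729, 707 and 639 in dKO livers, a change of -0.23 (adjusted p = 0.0639) that passed without control 2 (0.0327) or without dKO 1 (0.0382). Rxrg, a form best known from muscle and brain, was 118, 101, 124 and 119 in controls against 50.3, 60.1, 49.4 and 45.6 in dKO livers, without overlap, a change of -1.16 (interval -1.52 to -0.81, adjusted p = 0.000115). Per kb, the share of Rxra among RXR transcripts was 88.0% ± 1.19 in controls and 89.0% ± 0.834 in dKO livers.

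The 3 peroxisome proliferator-activated receptors moved apart. Ppara, which senses fatty acids and drives their oxidation in hepatocytes, was 2867, 3254, 2143 and 2369 in controls and 1914, 1342, 2098 and 1707 in dKO livers. The lowest control, liver 3, lay just above the highest dKO liver, also liver 3, and the change was -0.59 (interval -0.91 to -0.27, adjusted p = 0.00697). Pparg, known as the driver of fat storage in adipocytes and present in macrophages and steatotic hepatocytes, was 145, 152, 153 and 119 in controls against 462, 395, 444 and 395 in dKO livers. Every dKO liver had more than 2-fold the level of any control, and the change was 1.58 (interval 1.33 to 1.82, adjusted p = 6.3e-07). Ppard, the most widely expressed form, was 181, 154, 191 and 143 in controls against 245, 199, 233 and 271 in dKO livers and rose by 0.50 (adjusted p = 0.00995). Per kb, the share of Pparg among the 3 genes was 6.41% ± 1.16 in controls and 22.8% ± 2.41 in dKO livers. That of Ppara was 90.6% ± 1.88 in controls and 72.2% ± 2.68 in dKO livers. The log2 ratio of Ppara to Pparg was 4.21 ± 0.27 in controls and 2.04 ± 0.20 in dKO livers, without overlap.

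Genes known as targets of Ppara mostly fell and those of Pparg mostly rose. Of 30 PPAR alpha targets 25 fell, 2 rose and 3 did not pass, with a median of -0.86 against 0.03 over all genes. Cyp4a10, a fatty acid omega-hydroxylase, was 10696, 11724, 5985 and 6105 in controls and 382, 127, 90.3 and 348 in dKO livers. Acsl1, which activates long-chain fatty acids, was 2.76-fold lower, and Ech1, an isomerase of fatty acid oxidation, 2.27-fold lower. The 2 that rose were Fgf21, a fasting hormone, by 1.68, and Cpt1a, which admits fatty acids to mitochondria, by 0.29. The number that rose was 0 without dKO 3 and 1 without control 1, 3 or 4 or dKO 1 or 4. Of 9 tested PPAR gamma targets 6 rose and 0 fell, with a median of 1.16. Aqp7, the glycerol channel of fat cells, was 0, 0, 0 and 1.14 in controls and 14.1, 15.7, 21.3 and 24.2 in dKO livers. Lpl, lipoprotein lipase, was 485, 567, 491 and 1424 in controls against 4969.7, 2542, 2769 and 4045 in dKO livers, with control 4 the highest control. Fabp4, a fatty acid carrier of fat cells and macrophages, rose 3.01-fold. Lpl is also on the LXR list, and Lpl, Fabp4 and Cd36 are known from macrophages, of which 12 of 16 markers rose; the part of those cells in the result was not tested.

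**Figure D4:**
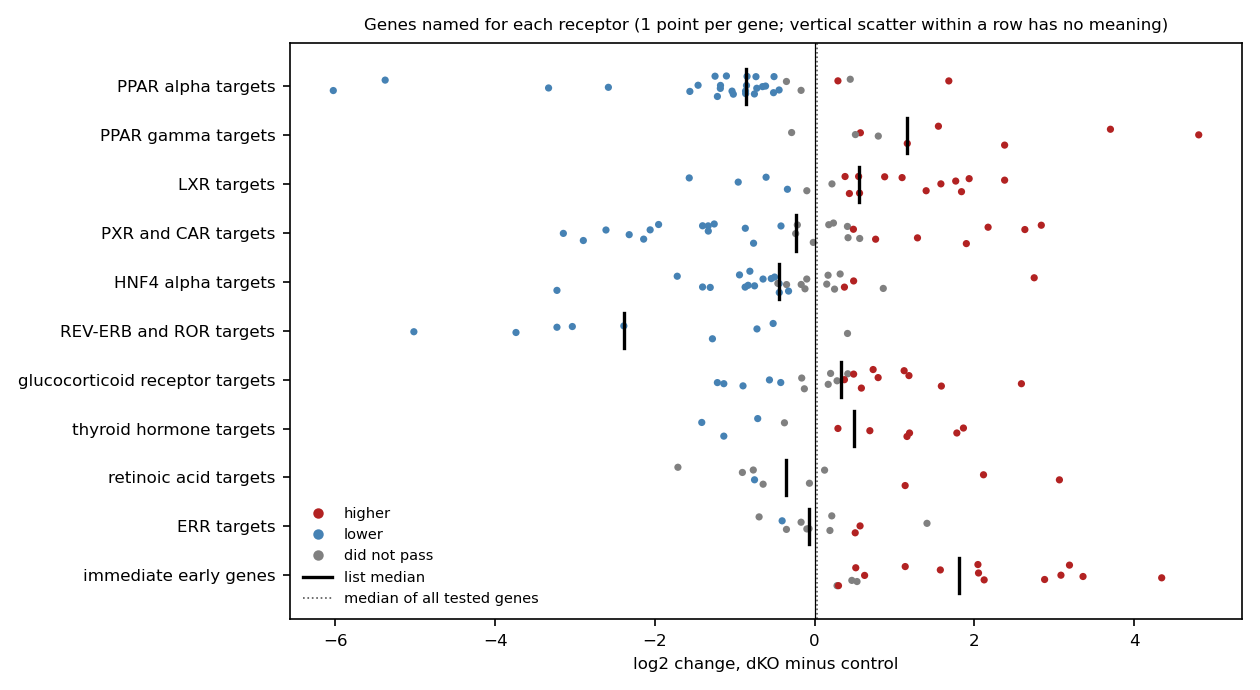
Log2 change of each tested gene (1 point per gene) in 10 lists of genes known as receptor targets and in the immediate early genes, with the list median (black bar) and the median of all tested genes (dotted line). PPAR alpha targets and REV-ERB and ROR targets lie mostly to the left, with medians of -0.86 and -2.39, and PPAR gamma targets and immediate early genes mostly to the right, with medians of 1.16 and 1.81.

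The liver X receptors, which sense oxysterols, did not pass. Nr1h3, LXR alpha, was 1701, 1694, 1691 and 1677 in controls, a narrow range, and 1726, 1430.3, 1484 and 1582 in dKO livers, with a change of -0.12 (interval -0.28 to 0.03, adjusted p = 0.209). Nr1h2, LXR beta, was 996, 1035, 1055 and 1051 in controls against 983, 904, 898 and 850.1 in dKO livers. Its groups did not overlap, and the change of -0.19 missed the threshold (adjusted p = 0.0554), which it passed without dKO 1 (0.0295), with only genes of a mean of at least 10 tested (0.0375) and on recovered reads with edgeR (0.0407) or DESeq2 (0.0483). Of 18 LXR targets 12 rose and 4 fell, with a median of 0.56. Abcg1, a cholesterol exporter, was 123, 134, 119.9 and 120.1 in controls against 409, 377, 369.6 and 568 in dKO livers, and Pltp, a phospholipid transfer protein, rose 2.12-fold. Mlxipl, the carbohydrate-sensing factor ChREBP, fell by 1.57. Without dKO 1, the lipid-sensing receptors that fell numbered 5 in place of 3, adding Rxrb and Nr1h2.

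Of the xenobiotic receptors Nr1i3 fell and Nr1i2 did not pass. Nr1i3, the constitutive androstane receptor CAR, which induces drug-metabolising enzymes, was 1567, 1452, 928 and 957 in controls and 458, 445, 265 and 504 in dKO livers. Controls 3 and 4 were lower than controls 1 and 2, and all 4 lay above every dKO liver; the change was -1.55 (interval -2.01 to -1.09, adjusted p = 9.5e-05). Nr1i2, PXR, its close relative with overlapping targets, was 2309, 2176, 1846 and 1718 in controls against 2395, 2562, 2045 and 2252 in dKO livers, with overlap and a change of 0.21 that did not pass (adjusted p = 0.138). After quantile normalization and after scaling to equal totals Nr1i2 passed as higher (adjusted p = 0.0196 and 0.0370). Per kb, the share of Nr1i3 in the pair was 25.7% ± 2.75 in controls and 9.37% ± 1.87 in dKO livers. Nr1i3 (ENSMUSG00000005677, chr1:171213970-171220701 on the plus strand) and Tomm40l lie on opposite strands, and 74.9% of the exon bases of Nr1i3 are shared with it. Tomm40l, a mitochondrial import gene, also fell, from 285 ± 86.0 to 179 ± 25.5 (log2 change -0.64, adjusted p = 0.0193). With the strand setting unknown, part of the fall of either gene can be reads of the other.

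Of 29 PXR and CAR targets 14 fell, 7 rose and 8 did not pass. Cyp2c29, an abundant CAR-responsive cytochrome P450, was 45577, 54939, 44201 and 52128 in controls and 8086, 6146, 5208 and 7280.1 in dKO livers, 7.37-fold lower. Cyp2b10, the classical CAR target, changed by -2.61, and Cyp3a11, the classical PXR target, by -0.76; both fell. Abcb1a, a drug efflux pump, went the other way, 138, 120.0, 95.7 and 127 in controls against 982, 919, 759.6 and 778 in dKO livers, 7.16-fold higher. The P450 genes of these families have near-identical copies between which reads can be split.

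Hnf4a, the first among the orphan receptors by level, fell modestly. HNF4 alpha binds DNA as a pair with itself and maintains the hepatocyte programme. Its values were 15085, 16718, 13661 and 12987 in controls and 11497, 11150.0, 10850.3 and 10311 in dKO livers, without overlap, a change of -0.41 (interval -0.61 to -0.21, adjusted p = 0.00337). After quantile normalization the limma change of Hnf4a was -0.19 and passed narrowly (adjusted p = 0.0482). The gamma form, Hnf4g, known from gut and pancreas, had 2, 3, 2 and 2 reads in control livers and 0, 5, 0 and 1 in dKO livers and did not pass (adjusted p = 0.217); it passed as lower without dKO 2 (0.0420), on a few reads. Of 28 HNF4 alpha targets 15 fell, 3 rose and 10 did not pass, with a median of -0.44. After quantile normalization 12 of these targets fell and 6 rose, with a median of -0.18. Otc, a urea cycle enzyme, was 1.78-fold lower. Apoa4, an apolipoprotein, rose 6.93-fold.

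Nr1d1 had the smallest adjusted p of the receptors. REV-ERB alpha is a repressor that binds alone or as a pair with itself, silences Arntl (BMAL1) and competes at the same sites with the ROR activators. Its gene (ENSMUSG00000020889, chr11:98767932-98775333 on the minus strand) was 2767, 2816, 2770.5 and 3290.3 in controls and 689, 496, 651 and 599.6 in dKO livers. Control 4 was the highest of all, and the lowest control was about 4-fold the highest dKO liver. The change was -2.26 (interval -2.49 to -2.04, adjusted p = 1.8e-08). The close relative Nr1d2, REV-ERB beta, was 1888, 1951, 1435 and 1792 in controls against 1945, 1615, 2120.5 and 1626 in dKO livers, overlapping, with a change of 0.05 (interval -0.20 to 0.30, adjusted p = 0.779). Per kb, the share of Nr1d1 in the pair was 74.3% ± 2.86 in controls and 36.9% ± 2.24 in dKO livers. Rora, the activator, was 1351, 1412, 1415 and 1256 in controls against 1207, 1141, 1356 and 1170.4 in dKO livers, a change of -0.16 that did not pass (adjusted p = 0.130) except without dKO 3 (0.0474).

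Genes known as REV-ERB and ROR targets fell in 8 of 9 cases, and none rose, with a median of -2.39; without dKO 1 the remaining gene, Cry1, passed as higher. Cyp7b1, an oxysterol hydroxylase, was 1593, 2692, 1952 and 1414 in controls and 169.9, 102, 157 and 136 in dKO livers. Elovl3, a fatty acid elongase with a strong daily rhythm, was 4052, 4413, 3102 and 2646 in controls against 168, 95.2, 46.0 and 178 in dKO livers. Both fell more than 10-fold. Arntl itself, the positive arm of the clock, was 195, 135, 212 and 127 in controls against 11.1, 17.6, 22.1 and 33.5 in dKO livers, so it was low where its repressor was low. Of 15 clock genes 6 rose and 4 fell. The 4 that fell, and Cry1, are also on the REV-ERB and ROR list, so the lists are not separate observations. Per2, of the negative arm, was 224, 329, 235 and 274 in controls against 890.0, 1012, 1035 and 1057 in dKO livers, and Per3 was 146, 289, 176 and 266 in controls against 1080.0, 875, 1145 and 997 in dKO livers; in both every dKO liver exceeded every control. By their changes, Arntl, Npas2, Clock and Nfil3 fell and Per1, Per2, Per3, Dbp, Tef and Ciart rose. All of these cycle over the day in liver, and no hour of harvest is given in the sources.

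**Figure D5:**
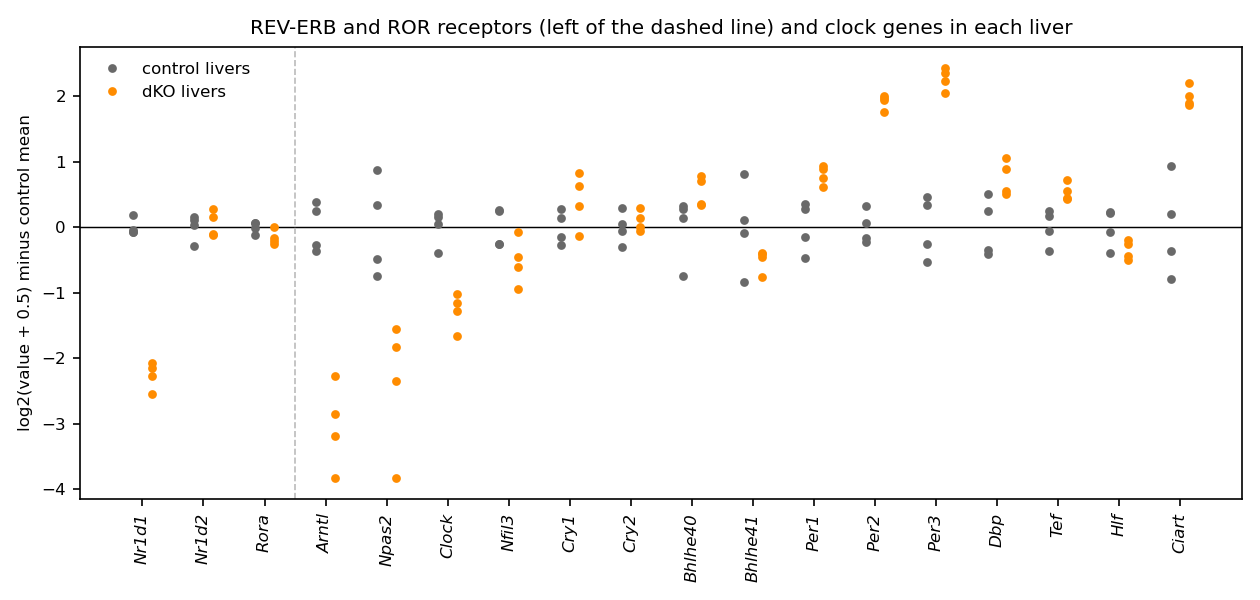
Log2(value + 0.5) of each liver minus the control mean for Nr1d1, Nr1d2 and Rora (left of the dashed line) and 15 clock genes, controls in grey and dKO in orange. Nr1d1, Arntl, Npas2 and Clock lie low in all 4 dKO livers, Per2, Per3 and Ciart lie high, and Nr1d2 overlaps between the groups.

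The estrogen-related receptors bind no known natural steroid and regulate mitochondrial genes. Esrra, the main liver form, was 837, 745, 838 and 686 in controls and 1395, 1364, 1059 and 1109 in dKO livers, without overlap, and rose by 0.66 (adjusted p = 0.000366). Esrrg, a form of oxidative tissue, had 100, 54, 72 and 64 reads in control livers and 1, 2, 5 and 1 in dKO livers, with 3 of the 4 dKO libraries under 3 reads. Over summed reads it was 36.9-fold lower (95% interval 19.2 to 81.6, counting error only), and limma gave -5.09 (adjusted p = 2.7e-06). All 4 dKO libraries lay below every control library (ENSMUSG00000026610, chr1:187608791-188214885 on the plus strand). Esrrb, known from stem cells and inner ear, had 14, 12, 6 and 19 reads in controls and 2, 4, 5 and 1 in dKO livers and fell by 2.16 (adjusted p = 0.00758). The log2 ratio of Esrra to Esrrg was 3.36 ± 0.31 in controls and 9.11 ± 0.92 in dKO livers. Of 11 tested ERR targets 2 rose, 1 fell and 8 did not pass, beside 21.2% of all genes that rose and 17.0% that fell. Cycs, cytochrome c, rose 1.43-fold, while Ndufs7, of complex I, fell by 0.41 on the log2 scale.

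The NR4A receptors, which act without a ligand and are induced within minutes by many stimuli, all rose, on low counts. Nr4a1 (NUR77) was 60.6, 116, 25.2 and 78.9 in controls and 121, 115, 158 and 128 in dKO livers. Control 2 lay above dKO 2, and control 3 was far below the other controls; the change was 1.07 (adjusted p = 0.0307). Its call was lost without control 1 (adjusted p = 0.0618) and without dKO 1, 2, 3 or 4 (0.0550, 0.0508, 0.0811 and 0.0630). It was also lost with quantile normalization (0.0773) and with robust variances (0.0687). Nr4a2 (NURR1) was 9.24, 15.4, 5.26 and 8.01 in controls against 19.1, 26.8, 23.0 and 16.8 in dKO livers, without overlap. The change of 1.21 (adjusted p = 0.0259) did not pass without control 3 (0.0642), dKO 2 (0.0773) or dKO 3 (0.0626). It also did not pass with quantile normalization (0.77, adjusted p = 0.145). Nr4a3 (NOR1) had 0, 5, 4 and 9 reads in controls and 12, 29, 51 and 40 in dKO livers, a change of 2.99 (interval 1.23 to 4.75, adjusted p = 0.0109), and 2.06 without control 1. Without dKO 2 or without dKO 3, 2 orphan receptors rose in place of 4. Of 16 immediate early genes, the class of rapid response genes to which the NR4A genes belong, 13 rose and 0 fell, with a median of 1.81. Jun was 336, 328, 239 and 336 in controls against 989.5, 1552, 1158 and 1452 in dKO livers, Klf6 rose 4.10-fold and Btg2 7.96-fold. Neutrophil and macrophage markers rose in the same livers, and their part in these results was not tested.

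Of the remaining orphan receptors, Nr6a1, Nr2c1, Nr2c2 and Nr2f6 fell, and Nr2f1 and Nr2f2 did not pass. Nr6a1, the germ cell nuclear factor, was 459, 301, 378 and 285 in controls and 156, 123, 142 and 179.7 in dKO livers, all dKO values below all controls, a change of -1.23 (interval -1.58 to -0.87, adjusted p = 8.2e-05). The testicular receptors Nr2c1 and Nr2c2 bind the same direct repeats as the RXR pairs. Nr2c1 was 284, 292, 343 and 324 in controls against 207, 156, 213 and 192 in dKO livers, a change of -0.70 (adjusted p = 0.000600). Nr2c2 was 334, 359, 282 and 298 in controls against 212, 171, 287 and 251 in dKO livers, with control 3 below dKO 3. Its change of -0.49 (adjusted p = 0.0228) did not pass without control 1 (0.0590), control 2 (0.0707), dKO 1 (0.0565) or dKO 2 (0.0623). Nor did it pass after scaling to equal totals (0.0506). It shares 30.7% of its exon bases with Mrps25 on the other strand, which was 162 ± 19.5 in controls and 167 ± 21.9 in dKO livers. Nr2f6, a COUP-TF relative, was 2088, 1889.8, 1903 and 1690.3 in controls against 1568, 1434, 1349.8 and 1351 in dKO livers, a change of -0.41 (adjusted p = 0.00178). It shares 54.4% of its exon bases with the opposite-strand gene Ocel1, which fell as well, from 421 ± 56.0 to 312 ± 14.9. The COUP-TF genes Nr2f1 and Nr2f2, the latter known from veins and mesenchyme, ranged from 11.3 to 39.2 and from 649.8 to 831 over the 8 livers, with changes of 0.59 (adjusted p = 0.201) and 0.05 (adjusted p = 0.693).

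To ask whether close relatives changed unequally, the log2 ratio of 17 pairs was compared between groups by exact permutation over livers. In 8 pairs the groups did not overlap and p was 0.0286, the smallest that 4 against 4 allows. These were Rara/Rarb, Rara/Rarg, Rxra/Rxrg, Ppara/Ppard, Ppara/Pparg, Nr1i3/Nr1i2, Esrra/Esrrg and Nr1d1/Nr1d2. Adjusted over the 17 pairs their p was 0.0607, so none passed 0.05. With 17 pairs, at least 10 would have had to reach the smallest p for any to pass. Among these, the largest shifts were 5.75 for Esrra/Esrrg, -2.31 for Nr1d1/Nr1d2, -2.17 for Ppara/Pparg and -1.76 for Nr1i3/Nr1i2. Over all 17 pairs the smallest were -0.000670 for Rxra/Rxrb and 0.00168 for Nr3c1/Nr3c2.

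Receptors act through coactivators, which many bind in the presence of ligand, and corepressors. Of all genes tested 21.2% rose and 17.0% fell. Of 22 coactivator genes 3 rose, 7 fell and 12 did not pass, with a median of -0.17. These counts moved with single libraries: without control 1 only 1 rose and 2 fell, without control 2 the number that fell was 3, without control 3 the number that rose was 1, without dKO 1 the number that fell was 4, and without dKO 2 only 1 rose and 3 fell. Ncoa7, an estrogen receptor coactivator, was 44.2, 40.0, 35.8 and 34.3 in controls and 104, 103, 89.4 and 81.9 in dKO livers, and Pnrc2 fell by 0.59. Of 12 corepressor genes 3 rose and 3 fell. Ncor1, the corepressor that REV-ERB and unliganded thyroid hormone receptors recruit, was 2714, 2522, 2186 and 1965 in controls against 1248, 1146, 1450.3 and 1427 in dKO livers, 1.78-fold lower. Hr (hairless), a corepressor of the vitamin D and thyroid receptors, rose 3.39-fold from a low level.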

How the data were processed

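Liver RNA of 8 mice, 4 controls and 4 dKO, was sequenced. The tools named in the submitters' processing notes are DESeq2, featureCounts 1.5.0-p3, HISAT2 2.0.5 and fastp, with build mm10; no annotation or strand setting is given in the sources. Although FPKM is in its name, the deposited table holds a signal of another kind, reads per gene after division by a library-wide size factor by the authors: 100% of values were within 0.001 of a whole number of reads. The design had assumed normalised values and planned edgeR instead if they were raw counts. Its log-scale test was kept for these normalised counts, with edgeR on recovered reads as an alternative. All 8 value columns matched a labelled sample (0 were unmatched), and 21796 of 22052 identifiers matched a symbol.

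After a filter at a mean of 0.5 (20055 genes left), log2(value + 0.5) was computed, and groups were compared with limma 3.58.1 (R 4.3.3, eBayes with a trend, 2-sided, Benjamini-Hochberg adjustment over all genes, threshold 0.05) with group as the only term. Alternatives were other pseudocounts and filters, quantile and equal-total scaling, robust variances, a replicate block, edgeR 4.0.16 and DESeq2 1.42.0 on recovered reads, and leaving out each liver. Pairs of relatives were compared by exact permutation over 70 assignments with scipy 1.17.1. Read ratios carry 95% exact intervals for counting error. Exon lengths, overlaps and 3' UTRs came from GENCODE M21. The limma step was tested on simulated data.

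The members and lists were chosen with earlier results of these data known. The rule names all 37 receptors, the 2 targeted genes, and of each list up to 3 called genes with the smallest adjusted p; cell markers appear as counts. A few genes the rule gives are not reported here. Outside it, Ttr, Cyp26a1, Fgf21, Cpt1a, Cd36, Cyp2b10, Cyp3a11, Cry1, Ecm1, Clec4g and the clock genes other than Per2, Per3 and Arntl were chosen after their values were seen, and genes sharing exons with a receptor are given beside it. Aldh1a3 was likewise chosen after its values were seen. List genes absent from the table (Prmt1, Cyp24a1, Plin1 and Ckmt2) were not analysed here.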

Additional observations from a re-analysis of the deposited data

Results flagged for a closer look

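Single livers stood apart in 4 of the 77 sets of 4 livers examined, by the size of the gap to the nearest liver over the whole range; chance gives about 1 in 20. Vdr in dKO 1 was 2.01 normalised reads (2 reads), against 14.9 to 15.7 in the other dKO livers. Nr1d1 in control 4 was 3290.3, against 2767 to 2816 in the other controls. Of the targeted genes, Zfp36l1 in dKO 4 was 267, against 209.5 to 214 in the other dKO livers, and Zfp36l2 in control 3 was 997, against 1722.0 to 1820 in the other controls.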

How the results depend on the processing

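Under the 18 alternatives, 8 to 11 receptors rose and 13 to 17 fell, against 10 and 16. Of the 26 receptors called, 21 kept their call and direction in every alternative that tested them, and 5 (Nr3c2, Rxra, Nr2c2, Nr4a1 and Nr4a2) lost it in some. Rxra reversed to 0.046 with quantile normalization (adjusted p = 0.600), a setting that moved the median of all genes by -0.11. The cause was not tested. Leaving out each liver in turn gave 8 to 10 receptors that rose and 14 to 17 that fell, and over all genes 3671 to 4296 and 2917 to 3305. Deviations of same-numbered livers were little correlated (-0.069 to 0.077). With 4 livers per group this cannot show whether the numbers pair the mice, and the labels do not say. With a replicate block 10 receptors rose and 14 fell, since Nr3c2 (adjusted p = 0.0875) and Rxra (0.0689) no longer passed. Over all genes 4021 rose and 3112 fell with that block. Scaling to equal totals gave 11 and 13 receptors (4734 and 2715 of all genes) and quantile normalization 9 and 15 (3638 and 4312 of all genes), so the balance of all genes turned with the scaling, while in both more receptors fell than rose. Counts of receptors were, with edgeR, 9 and 16 and, with DESeq2, 10 and 17. With a filter at a mean of 10, Vdr and Esrrb were not tested and Nr1h2 passed as lower. Depth limits Pgr, Vdr, Hnf4g, Esrrb, Esrrg and Nr4a3, which had under 3 reads in at least 1 library.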

Other observations

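The control livers differed among themselves along gene groups that include receptors. Controls 1 and 2 held more Nr1i3 (1567 and 1452) than controls 3 and 4 (928 and 957). The same 2 livers held more Ppara, more Hnf4a and more of the PPAR alpha target Cyp4a10. The immediate early genes, among which Nr4a1 belongs by its known induction, were lowest in control 3, with a median deviation from the control mean of -0.47 on the log2 scale, and highest in control 4, with 0.66. In dKO livers that median deviation ran from 1.32 to 2.05, above every control. These are values of single livers, and no test was run on them.

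The promoters of the receptor genes were searched for the nuclear receptor half-site AGGTCA and for the E-box CACGTG, which the clock activators bind, on both strands of RefSeq windows of 300 bases (GRCm38.p6). Windows matched 34 of the 37 receptors. AGGTCA was in 9 of 53 receptor windows (17.0%) and in 16.3% of all 32851 windows. CACGTG was in 4 (7.55%) and in 7.15% of all. Of the genes described, Nr1i3, Rara and Thrb had an E-box in a window.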
